A study of Mus musculus with 6 samples.

Results

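The lysosome genes described here are 44 genes listed by symbol (proteases, other hydrolases, membrane proteins, proton pump subunits and regulators), and all 44 were found among the 30743 features of the deposited expression table. They were read in the mouse mammary tumour line Tri-PyMT, whose cells change from red (RFP+) to green (GFP+) fluorescence when they switch on a mesenchymal promoter, and which the labels call non-EMT (RFP+) and EMT (GFP+), for epithelial-mesenchymal transition. As background on the line, it comes from tumours driven by the polyoma middle T oncogene, and the colour change follows Cre recombinase under the promoter of Fsp1 (S100a4), so green marks past activity of that promoter. The 6 RNA sequencing samples form 3 groups of 2. These are GFP+ cells cultured for 7 days with 4 µM 4-hydroperoxy-cyclophosphamide (CTX, an activated form of the alkylating drug cyclophosphamide), untreated GFP+ cells and untreated RFP+ cells, all grown in medium with 10% serum and sorted by flow cytometry. CTX-treated RFP+ cells were not analysed here. Whether the 2 samples of a group are separate cultures is not stated, so the p-values speak only of how far these samples vary, and that variation may be technical.

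Lysosomes are acidic compartments that break down proteins, glycans and lipids delivered by endocytosis, phagocytosis and autophagy. A proton pump, the V-ATPase, acidifies them, soluble hydrolases do the digestion, and heavily glycosylated membrane proteins such as LAMP1 and LAMP2 line their inner face. Many of the genes share a short promoter element, called CLEAR, that is bound by TFEB and its relatives TFE3 and MITF. In mammary tissue these enzymes are known for their part in the regression of the gland after weaning, and several are secreted by tumour cells.

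Expression is given as FPKM, fragments scaled by transcript length and by all mapped fragments of a sample, so levels can be compared between genes. Changes were tested with limma on log2(FPKM + 1), with Benjamini-Hochberg adjustment over 13080 genes that reached 1 FPKM in at least 2 samples, and "rose" or "fell" is used for an adjusted p under 0.05. Of the 44 members 43 passed that filter, and 3 of these (Lyz2, Ctsf and Ctss) reached 1 FPKM only in the CTX samples. Replicate 1 of the untreated GFP+ cells stood apart, with a log2 size factor of -0.43 against 0.03 to 0.15 in the other samples. Its number of fragments, read from the steps between low values, was 0.793 of that in RFP+ replicate 1, against 1.0 to 1.1 in the rest. Results are therefore also given after median-ratio scaling, which moved the median change of all tested genes to -0.05 from 0.25 in CTX-treated minus untreated GFP+ cells and to -0.01 from -0.24 in untreated GFP+ minus RFP+ cells. The CTX pair lay closest together, with a robust SD of 0.0762 for the log2 difference of its 2 samples over all genes, against 0.340 in untreated GFP+ and 0.293 in RFP+ cells. The 10 epithelial markers read summed to 501 and 478 FPKM in CTX-treated GFP+, 238 and 425 in untreated GFP+ and 951 and 1212 in RFP+ cells. With CTX against untreated GFP+ cells 2 rose (20%, beside 12.3% of all tested genes). In untreated GFP+ against RFP+ cells 7 were lower (70%, beside 1.78% of all). The 10 fibroblast markers summed to 161 and 164 FPKM in CTX-treated GFP+, 232 and 230 in untreated GFP+ and 111 and 85.5 in RFP+ cells. Against untreated GFP+ cells 3 of 6 tested fell with CTX (50%, beside 0.474% of all), and 2 had changes above 0. Postn, which fell, had 43.1 and 43.5 FPKM in CTX-treated and 160 and 110 in untreated GFP+ cells. Dcn went the other way without passing, at 84.0 and 87.25 FPKM in CTX-treated and 30.4 and 53.5 in untreated GFP+ cells. All 7 endothelial markers stayed under 1 FPKM in every sample, and their summed level was higher with CTX, at 2.09 and 2.04 FPKM in CTX-treated GFP+, 0.142 and 0.443 in untreated GFP+ and 0.214 and 0.333 in RFP+ cells. The part of these cell type markers in the results below was not tested.

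**Figure D1:**
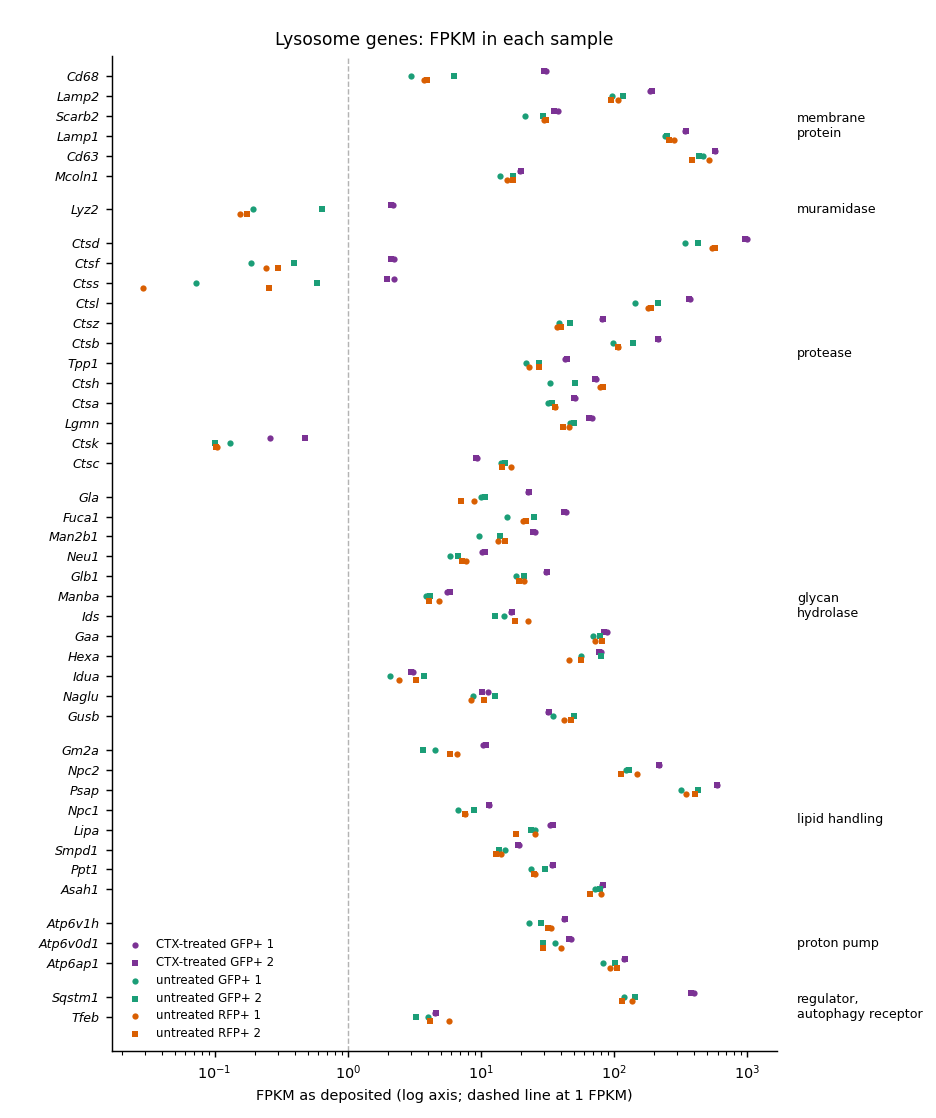
FPKM of the 44 lysosome genes (log axis) in each of the 6 samples, grouped by role, with the 2 replicates of a group drawn as circles and squares. Levels run from under 0.1 FPKM to 993 FPKM, and for most genes the CTX-treated GFP+ points lie to the right of the untreated ones.

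The summed FPKM of the 44 genes was 5096 and 5043 in CTX-treated GFP+ cells, 2713 and 3206 in untreated GFP+ cells and 3257 and 3132 in RFP+ cells. After scaling the sums were 4585 and 4538 in CTX-treated GFP+, 3663 and 3147 in untreated GFP+ and 3101 and 3008 in RFP+ cells. On both scales the CTX samples lay above all 4 untreated samples. The 5 genes of highest mean level, Ctsd, Cd63, Psap, Lamp1 and Ctsl, held 54.7% to 57.8% of the sum in every sample.

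CTX-treated GFP+ cells were compared with untreated GFP+ cells to ask how EMT cells kept with the drug differed from those without it. A culture time is stated for the CTX samples alone, so time and drug cannot be told apart, nor can a change within cells be told from a change in which cells remained. Cd68, Sqstm1 and Ctsd led the lysosome genes that rose. Of 43 tested members 18 rose (12.3% of all tested genes rose) and 0 fell (0.474% of all), with 1 lower at an unadjusted p under 0.05. The median change was 0.60, beside 0.25 over all tested genes. Without the 3 members at 1 FPKM in the CTX samples only, 15 of 40 rose and 0 fell, beside 10.0% and 0.491% of genes chosen the same way (8.81% and 8.34% after scaling, where 10 and 2 of the 40 did). After median-ratio scaling 13 rose (11.0% of all) and 2 fell (8.04% of all), with a median of 0.25 beside -0.05. After quantile normalization 19 rose (10.7% of all) and 2 fell (11.3% of all).

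In 38 of the 43 tested members both CTX samples lay above both untreated GFP+ samples, as they did in 51.9% of all tested genes. Ctsc and Gusb lay below in both CTX samples, as did 12.4% of all genes, and Hexa, Idua and Naglu overlapped. The number of risen members moved with the samples in the model. It was 4 with the CTX pair averaged (Cd68, Lyz2, Ctsf and Sqstm1), and with averaging and scaling together it was 0 (13 at an unadjusted p under 0.05). Lyz2 and Ctsf passed the filter only through the CTX samples, which fixed their direction beforehand. Leaving out either CTX replicate, so that 1 was left in its group, also lowered the number of risen members. Fewer rose without either RFP+ replicate, which enters only through the shared spread. Leaving out untreated GFP+ replicate 1 or 2 moved the median change of all tested genes to 0.08 or 0.43, from 0.25. The share of all genes called in these fits is not given here.

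Among membrane proteins Cd68, a heavily glycosylated LAMP family protein best known from macrophages, had the largest log2 change of any member on the FPKM + 1 scale. By the ratio of mean FPKM in CTX-treated over untreated GFP+ cells it stood at 6.53, beside 7.42 for the protease Ctsf, which was near 0 in untreated cells. Cd68 had 30.9 and 29.8 FPKM in CTX-treated GFP+ cells, 3.0 and 6.30 in untreated GFP+ cells and 3.74 and 3.94 in RFP+ cells. The CTX samples stood well above the other 4, which overlapped, and Cd68 rose against untreated GFP+ cells by 2.54 (SE 0.29, adjusted p = 0.00376) as deposited and 2.23 scaled (adjusted p = 0.0049). Lamp2, which lines the lysosome and takes part in chaperone-mediated autophagy, had 186 and 194 FPKM in CTX-treated GFP+, 96.6 and 117 in untreated GFP+ and 106 and 94.4 in RFP+ cells. It rose by 0.83 (SE 0.18, adjusted p = 0.0309), and its scaled change was 0.48 (adjusted p = 0.0576).

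The remaining membrane proteins did not pass. Lamp1 was far more abundant than Lamp2, with 344 and 350 FPKM in CTX-treated GFP+, 241 and 251 in untreated GFP+ and 280 and 259 in RFP+ cells. Its CTX samples were above the rest, with a log2 change of 0.50 (adjusted p = 0.105). The tetraspanin Cd63 had 573 and 570 FPKM in CTX-treated GFP+, 465 and 434 in untreated GFP+ and 517 and 384 in RFP+ cells, with a log2 change of 0.35 as deposited and -0.01 scaled (adjusted p = 0.32 and 0.989). Scarb2, also called LIMP-2, an abundant membrane protein of lysosomes, had a log2 change of 0.53 (adjusted p = 0.126), and the calcium channel Mcoln1 one of 0.32 (adjusted p = 0.284) as deposited and -0.02 scaled.

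Proteases held the most risen members. Of the 12, Ctsk was below the filter and 8 of the other 11 rose (72.7%, beside 12.3% of all tested genes), with a median change of 0.87. After scaling 7 rose (63.6%, beside 11.0% of all) and 1 fell (9.09%, beside 8.04% of all), with a median of 0.52. Without Ctsf and Ctss, which passed the filter through the CTX samples alone and so had to be higher there, 6 of 9 rose and the median was 0.82 (5 risen, 1 fallen and 0.47 after scaling). Cathepsin D (Ctsd), the main aspartic protease of lysosomes, was the most abundant lysosome gene, with 993 and 971 FPKM in CTX-treated GFP+, 340 and 430 in untreated GFP+ and 544 and 570 in RFP+ cells. The 3 groups did not overlap, the untreated GFP+ samples being lowest, and Ctsd rose against untreated GFP+ cells by 1.36 (SE 0.20, adjusted p = 0.00981), or 1.0 scaled (adjusted p = 0.0155).

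The abundant cysteine proteases Ctsl, Ctsb and Ctsz all rose. Ctsl, a broad endopeptidase, had 375 and 366 FPKM in CTX-treated GFP+, 144 and 215 in untreated GFP+ and 180 and 190 in RFP+ cells (log2 change 1.07, SE 0.23, adjusted p = 0.029). Ctsb, which cuts as both endopeptidase and peptidyl-dipeptidase, had 216 and 215 FPKM in CTX-treated GFP+, 98.7 and 139 in untreated GFP+ and 108 and 107 in RFP+ cells (0.87, SE 0.21, adjusted p = 0.0398). Ctsz, a carboxypeptidase, had 81.9 and 82.7 FPKM in CTX-treated GFP+, 38.5 and 46.5 in untreated GFP+ and 37.1 and 40.3 in RFP+ cells (0.94, SE 0.17, adjusted p = 0.0178). For all 3 the mean FPKM of CTX-treated cells was 1.81 to 2.07 times that of untreated GFP+ cells, and each also rose after scaling (0.72, 0.52 and 0.59).

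Tpp1 and Ctsa rose as deposited and did not pass after scaling. Tpp1, a tripeptidyl peptidase lost in a childhood neurodegeneration, had 42.7 and 44.4 FPKM in CTX-treated GFP+, 21.7 and 27.3 in untreated GFP+ and 22.9 and 27.1 in RFP+ cells (0.82, SE 0.19, adjusted p = 0.037; scaled 0.47, adjusted p = 0.0555). Ctsa, a carboxypeptidase that also protects neuraminidase and β-galactosidase in a complex, had 51.1 and 50.1 FPKM in CTX-treated GFP+, 32.0 and 34.1 in untreated GFP+ and 35.8 and 35.8 in RFP+ cells. Ctsa lay just inside the threshold (0.60, SE 0.15, adjusted p = 0.0499) and outside it after scaling (0.25, adjusted p = 0.259). The asparaginyl endopeptidase Lgmn did not pass against untreated GFP+ cells, with 68.2 and 65.3 FPKM in CTX-treated GFP+, 46.5 and 50.1 in untreated GFP+ and 45.9 and 41.2 in RFP+ cells (0.46, adjusted p = 0.111).

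Ctsc and Ctsh stood apart from the other proteases. Ctsc, the dipeptidyl peptidase that activates granule serine proteases of leukocytes, had 9.38 and 9.21 FPKM in CTX-treated GFP+, 14.1 and 15.1 in untreated GFP+ and 16.7 and 14.4 in RFP+ cells. It was lower in both CTX samples than in any other, and against untreated GFP+ cells fell after scaling and not as deposited (-0.93, adjusted p = 0.02; as deposited -0.60, adjusted p = 0.0679). Ctsh, an aminopeptidase, had 73.5 and 71.5 FPKM in CTX-treated GFP+, 32.9 and 50.6 in untreated GFP+ and 78.2 and 82.7 in RFP+ cells. It was low in untreated GFP+ cells alone, and its change with CTX passed after scaling (0.47, adjusted p = 0.0422) and after quantile normalization (adjusted p = 0.0411), and not as deposited (0.81, adjusted p = 0.0622).

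A few members were near 0 in untreated cells. The myeloid lysozyme Lyz2 had 2.17 and 2.10 FPKM in CTX-treated GFP+, 0.195 and 0.637 in untreated GFP+ and 0.155 and 0.174 in RFP+ cells. Ctss, a cysteine protease of antigen-presenting cells, had 2.22 and 1.97 FPKM in CTX-treated GFP+, 0.0722 and 0.583 in untreated GFP+ and 0.0287 and 0.257 in RFP+ cells. Ctsf had 2.23 and 2.11 FPKM in CTX-treated GFP+, 0.188 and 0.397 in untreated GFP+ and 0.243 and 0.297 in RFP+ cells. All 3 passed the filter only through the CTX samples, so that a gene of this kind had to be higher there, and their log2 changes of 1.16, 1.25 and 1.30 understate the ratio because of the pseudocount. Ctsk, the collagen-degrading cathepsin of osteoclasts, had 0.259 and 0.474 FPKM in CTX-treated GFP+, 0.13 and 0.10 in untreated GFP+ and 0.103 and 0.103 in RFP+ cells, and was not tested.

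Cd68, Lyz2 and Ctss are also used as markers of macrophages, and 23 other macrophage and leukocyte markers were read beside them. Emr1, Tyrobp, C1qc and Cd3e were listed at 0 in all 6 samples, and the pan-leukocyte Ptprc did not exceed 0.0128 FPKM. Apart from Cd14, at 136 and 131 FPKM in CTX-treated GFP+, 114 and 121 in untreated GFP+ and 206 and 205 in RFP+ cells, no marker reached 1 FPKM in any sample. The summed FPKM of those 22 was 4.26 and 3.97 in CTX-treated GFP+, 0.89 and 2.40 in untreated GFP+ and 1.38 and 2.14 in RFP+ cells, led in the CTX samples by the mannose receptor Mrc1 at 0.771 and 0.805 FPKM. The sum was thus highest in the CTX samples. Both CTX samples lay above every untreated sample for Ptprc, Csf1r, Fcgr1, Fcgr3, Aif1, Mrc1, Cx3cr1, Mpeg1, Clec7a and Cd79a. Mpeg1, for example, had 0.648 and 0.672 FPKM in CTX-treated GFP+, 0.0201 and 0.217 in untreated GFP+ and 0.0640 and 0.287 in RFP+ cells. Itgam alone lay below every untreated sample in both CTX samples, with 0.463 and 0.372 FPKM in CTX-treated GFP+, 0.471 and 0.482 in untreated GFP+ and 0.805 and 0.632 in RFP+ cells. The rest of the 22 overlapped or were listed at 0. Whether other cells had a part in the levels of Cd68, Lyz2 and Ctss was not tested. Fewer cells of a type and less RNA per cell cannot be told apart in such pooled samples.

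**Figure D2:**
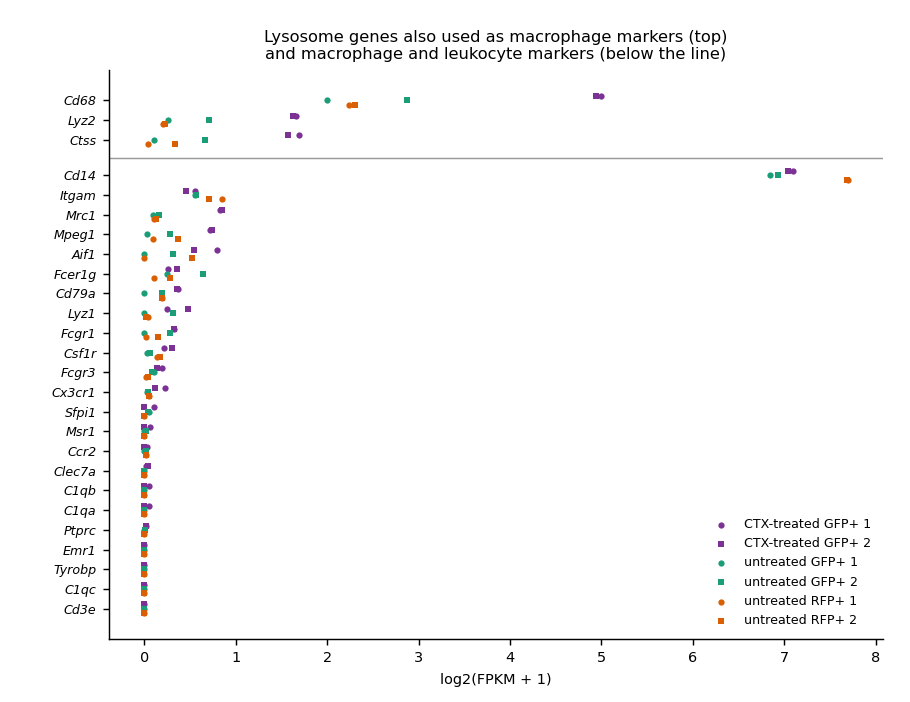
Levels on the log2(FPKM + 1) scale of Cd68, Lyz2 and Ctss (top) and of 23 macrophage and leukocyte markers (below the line) in each sample. Cd68, Lyz2 and Ctss are highest in the CTX-treated GFP+ samples, and all markers other than Cd14 stay under 1 on this scale.

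Enzymes that degrade glycans gave fewer calls, with 3 of 12 risen (25%, beside 12.3% of all tested genes) and a median change of 0.35 (0.03 scaled). After scaling 3 rose (25%, beside 11.0% of all) and 1 fell (8.33%, beside 8.04% of all). Gla, the α-galactosidase deficient in Fabry disease, had 22.7 and 23.0 FPKM in CTX-treated GFP+, 10.0 and 10.8 in untreated GFP+ and 8.81 and 7.13 in RFP+ cells, 3 groups that did not overlap (1.06, SE 0.18, adjusted p = 0.0142; scaled 0.73, adjusted p = 0.0353). The α-fucosidase Fuca1 had 43.7 and 41.8 FPKM in CTX-treated GFP+, 15.6 and 25.2 in untreated GFP+ and 20.8 and 22.0 in RFP+ cells (1.07, SE 0.24, adjusted p = 0.0336). Man2b1, the lysosomal α-mannosidase, had 25.5 and 24.6 FPKM in CTX-treated GFP+, 9.67 and 13.9 in untreated GFP+ and 13.5 and 15.1 in RFP+ cells (1.05, SE 0.21, adjusted p = 0.0245). These 3 rose after scaling as well.

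Gusb, the β-glucuronidase, went the other way. It had 31.7 and 32.6 FPKM in CTX-treated GFP+, 34.6 and 49.9 in untreated GFP+ and 42.4 and 47.4 in RFP+ cells, with the CTX samples lowest. It fell after scaling and not as deposited (-0.71, adjusted p = 0.0164; as deposited -0.36, adjusted p = 0.3). The other 8 did not pass on either scale. Glb1, the lysosomal β-galactosidase, had 31.0 and 31.4 FPKM in CTX-treated GFP+, 18.5 and 21.1 in untreated GFP+ and 21.2 and 19.3 in RFP+ cells, its CTX samples being highest (0.63, adjusted p = 0.0523). Changes of the sialidase Neu1 and the β-mannosidase Manba were 0.65 and 0.41 as deposited. Those of Ids, Hexa, Gaa, Idua and Naglu ranged from 0.02 (Naglu) to 0.28 (Ids) as deposited and were all below 0 after scaling.

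Of 8 genes for lipid handling 2 rose as deposited (25%, beside 12.3% of all tested genes), with a median of 0.49. After scaling 0 rose (beside 11.0% of all, and 1 at an unadjusted p under 0.05), with a median of 0.16. Gm2a, the activator protein that presents GM2 ganglioside to hexosaminidase, had 10.3 and 11.0 FPKM in CTX-treated GFP+, 4.51 and 3.64 in untreated GFP+ and 6.61 and 5.82 in RFP+ cells. Its 3 groups did not overlap, and the change was 1.2 (SE 0.18, adjusted p = 0.0104) as deposited and 0.89 (adjusted p = 0.0506) scaled. Npc2, which carries cholesterol within the lysosome, had 219 and 219 FPKM in CTX-treated GFP+, 123 and 129 in untreated GFP+ and 148 and 113 in RFP+ cells (0.79, SE 0.19, adjusted p = 0.0423; scaled 0.44, adjusted p = 0.178). Psap, the precursor of the saposins, had 599 and 592 FPKM in CTX-treated GFP+, 318 and 426 in untreated GFP+ and 349 and 407 in RFP+ cells (0.69, adjusted p = 0.0856). Npc1, the membrane partner of Npc2 in cholesterol export, had 11.6 and 11.5 FPKM in CTX-treated GFP+, 6.70 and 8.85 in untreated GFP+ and 7.59 and 7.59 in RFP+ cells (0.52, adjusted p = 0.12). Ppt1, which removes fatty acids from proteins, had 34.4 and 35.1 FPKM in CTX-treated GFP+, 23.7 and 30.4 in untreated GFP+ and 25.7 and 25.2 in RFP+ cells (0.36, adjusted p = 0.234). In both the CTX samples were highest without passing. The acid lipase Lipa, the sphingomyelinase Smpd1 and the ceramidase Asah1 had changes of 0.12 to 0.45 that did not pass.

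The autophagy receptor Sqstm1 (p62), which links ubiquitinated cargo to autophagosomes and is itself degraded with it, came next to Cd68 in log2 change of FPKM + 1, with a ratio of mean FPKM of 2.94, below those of the low members Ctsf, Ctss and Lyz2 (5.12 to 7.42). It had 396 and 381 FPKM in CTX-treated GFP+, 120 and 144 in untreated GFP+ and 137 and 116 in RFP+ cells. The CTX samples were far above the untreated ones, which overlapped, and Sqstm1 rose by 1.56 (SE 0.19, adjusted p = 0.00458) as deposited and 1.2 (adjusted p = 0.0108) scaled. Tfeb, the regulator of the CLEAR element, had 4.49 and 4.63 FPKM in CTX-treated GFP+, 3.99 and 3.27 in untreated GFP+ and 5.76 and 4.17 in RFP+ cells (0.27, adjusted p = 0.419; scaled -0.02, adjusted p = 0.952).

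Of the 3 V-ATPase genes among the members, the regulatory subunit Atp6v1h had 42.0 and 43.1 FPKM in CTX-treated GFP+, 23.0 and 28.2 in untreated GFP+ and 33.7 and 32.2 in RFP+ cells. It rose as deposited (0.72, SE 0.17, adjusted p = 0.0415) and did not pass scaled (0.37, adjusted p = 0.06). The membrane-sector subunit Atp6v0d1 and the accessory protein Atp6ap1 had changes of 0.51 and 0.38 (adjusted p = 0.153 and 0.218).

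The promoters of the members were searched for the 8-letter core of the CLEAR element, TCACGTGA, and for the E-box inside it, CACGTG, both of which read the same on either strand. Sequences came from the RefSeq table for GRCm38.p6, in windows of 250 bases before to 50 bases after each start site, and 39 of the 44 members had a window. The core was found in 5 members (12.8% of 39), namely Ctsd, Gla, Ctsa, Mcoln1 and Atp6v0d1, against 1.12% of all genes in the table and 0.974% of its windows. The E-box, which every core contains, was found in 12 members (30.8%), against 8.09% of all genes. The 5 stretches are shown because they carry the core, which is in capitals, and each runs 5′ to 3′ on the gene's strand. Those of Ctsd and Gla cover the 250 bases before the start site, and Mcoln1 the 80 bases before it. The stretches of Ctsa and Atp6v0d1, where the core lies at the start site, run from 40 bases before it to 20 after.
Ctsd, chr7:142387828-142388077, minus strand: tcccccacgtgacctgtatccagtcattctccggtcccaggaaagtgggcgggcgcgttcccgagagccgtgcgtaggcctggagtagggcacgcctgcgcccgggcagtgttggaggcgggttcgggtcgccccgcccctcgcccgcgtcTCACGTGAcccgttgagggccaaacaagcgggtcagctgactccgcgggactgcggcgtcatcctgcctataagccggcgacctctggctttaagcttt
Gla, chrX:134601006-134601255, minus strand: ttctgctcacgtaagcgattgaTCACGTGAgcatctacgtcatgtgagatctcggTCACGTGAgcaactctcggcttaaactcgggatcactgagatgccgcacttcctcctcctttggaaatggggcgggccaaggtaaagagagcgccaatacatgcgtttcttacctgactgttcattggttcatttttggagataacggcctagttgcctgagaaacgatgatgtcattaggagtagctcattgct
Ctsa, chr2:164833733-164833792, plus strand: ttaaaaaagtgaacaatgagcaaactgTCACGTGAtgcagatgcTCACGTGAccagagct
Mcoln1, chr8:3500439-3500518, plus strand: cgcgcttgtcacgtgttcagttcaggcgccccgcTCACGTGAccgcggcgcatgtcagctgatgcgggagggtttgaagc
Atp6v0d1, chr8:105566045-105566104, minus strand: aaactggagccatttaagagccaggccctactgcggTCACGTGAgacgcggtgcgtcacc
Gla and Ctsa hold 2 copies each, in Gla centred 224 and 191 bases before the start site and in Ctsa 9 bases before and 8 after it. In Ctsd the core is centred 95 bases before the start site and in Mcoln1 42 bases before it. Log2 changes with CTX against untreated GFP+ cells were 1.36 for Ctsd, 1.06 for Gla, 0.60 for Ctsa, 0.51 for Atp6v0d1 and 0.32 for Mcoln1. Of these Ctsd, Gla and Ctsa passed, where 18 of 43 tested members and 12.3% of all tested genes rose. After scaling the changes were 1.0, 0.73, 0.25, 0.17 and -0.02 in the same order, and Ctsd and Gla passed. Of the members with an E-box and no core, Ctsl and Ctsf rose as deposited, and Gaa, Glb1, Lamp1, Lgmn and Naglu did not pass. Members that rose with neither in their windows included Cd68, Sqstm1 and Lamp2. Whether the core or the E-box has a part in these changes was not tested.

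Against untreated RFP+ cells, CTX-treated GFP+ cells differed in colour and drug together. Of 43 tested members 16 rose (11.0% of all tested genes rose) and 1 fell (5.99% of all), with a median change of 0.54 beside 0.01 over all genes. Without the 3 members at 1 FPKM in the CTX samples only, 13 of 40 rose and 1 fell, beside 8.47% and 6.21% of genes chosen the same way (12.5% and 16.8% after scaling, where 16 and 2 of the 40 did). After scaling 19 rose (15.0% of all) and 2 fell (16.2% of all), with a median of 0.46 beside -0.07. After quantile normalization 25 rose (14.9% of all) and 2 fell (18.0% of all). Both CTX samples lay above both RFP+ samples in 36 members (39.5% of all genes) and below in 4 (37.7% of all). This comparison shares the CTX samples with the one above.

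Cd68 (2.70, SE 0.29, adjusted p = 0.0025), Sqstm1 (1.62, SE 0.19, adjusted p = 0.00315) and Gla (1.42, SE 0.18, adjusted p = 0.00417) rose most among members that did not depend on the CTX samples for the filter. Ctsz, Ctsb, Ctsl, Fuca1 and Lamp2 rose by 0.91 to 1.07. Ctsd rose by 0.82, Tpp1 by 0.78, Npc2 by 0.76 and Gm2a by 0.69, of which Npc2 and Gm2a did not pass scaled (adjusted p = 0.0578 and 0.0935). Lgmn, which had not passed against untreated GFP+ cells, rose by 0.61 (SE 0.16, adjusted p = 0.0461) and did not pass scaled (adjusted p = 0.0522). Ctsc fell by 0.68 on the log2 scale (SE 0.17, adjusted p = 0.0391), and Gusb fell after scaling and not as deposited (-0.55, adjusted p = 0.0183). Members that passed after scaling and not as deposited were Man2b1, Hexa, Psap, Glb1, Npc1 and Ppt1, with scaled changes of 0.35 to 0.68. Ctsh, at 73.5 and 71.5 FPKM in CTX-treated GFP+ and 78.2 and 82.7 in RFP+ cells, had a change of -0.15 (adjusted p = 0.689).

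Lyz2, Ctsf and Ctss passed the filter only through the CTX samples, so their direction was fixed beforehand. The count of risen members was 5 with the CTX pair averaged, namely these, Cd68 and Sqstm1. Leaving out any 1 of the RFP+ or CTX replicates also lowered the count. It was 26 without either untreated GFP+ replicate, or in a model of only the 4 samples compared. The 1 fallen member, Ctsc, was lost without any 1 of the 4 compared samples. The median change of all tested genes lay between -0.01 and 0.04 in these fits. The share of all genes called in them is not given here.

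In the absence of drug, GFP+ cells were set against RFP+ cells to ask what the EMT state itself changed in these genes. No lysosome gene passed as deposited (0 of 43 in limma, beside 0.115% of all tested genes higher and 1.78% lower, and 4 members lower at an unadjusted p under 0.05). The median change was -0.03 beside -0.24 over all genes, and 0.21 beside -0.01 after scaling, so its sign depends on the scaling. Both GFP+ samples lay above both RFP+ samples in 4 members (4.95% of all genes) and below in 10 (41.5% of all), and 29 overlapped.

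Ctsh was the one member past the threshold after scaling (1.02% of all genes higher and 1.96% lower). It had 32.9 and 50.6 FPKM in untreated GFP+ and 78.2 and 82.7 in RFP+ cells and fell by 0.70 on the log2 scale (SE 0.11, adjusted p = 0.046), and its change as deposited was -0.96 (adjusted p = 0.108). After quantile normalization no member passed (0.979% of all genes higher and 1.83% lower), Ctsh having an adjusted p of 0.0921. Ctsd, at 340 and 430 FPKM in untreated GFP+ and 544 and 570 in RFP+ cells, had a change of -0.54 (adjusted p = 0.255), and Gm2a one of -0.51 (adjusted p = 0.24). Hexa, the α subunit of β-hexosaminidase, had 56.7 and 80.4 FPKM in untreated GFP+ and 45.8 and 56.2 in RFP+ cells, groups that did not overlap, and a change of 0.41 (0.67 scaled, adjusted p = 0.0815). Without untreated GFP+ replicate 2 only the low replicate 1 was left in its group. The median change of all tested genes was then -0.42, beside -0.24 with all samples.

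**Figure D3:**
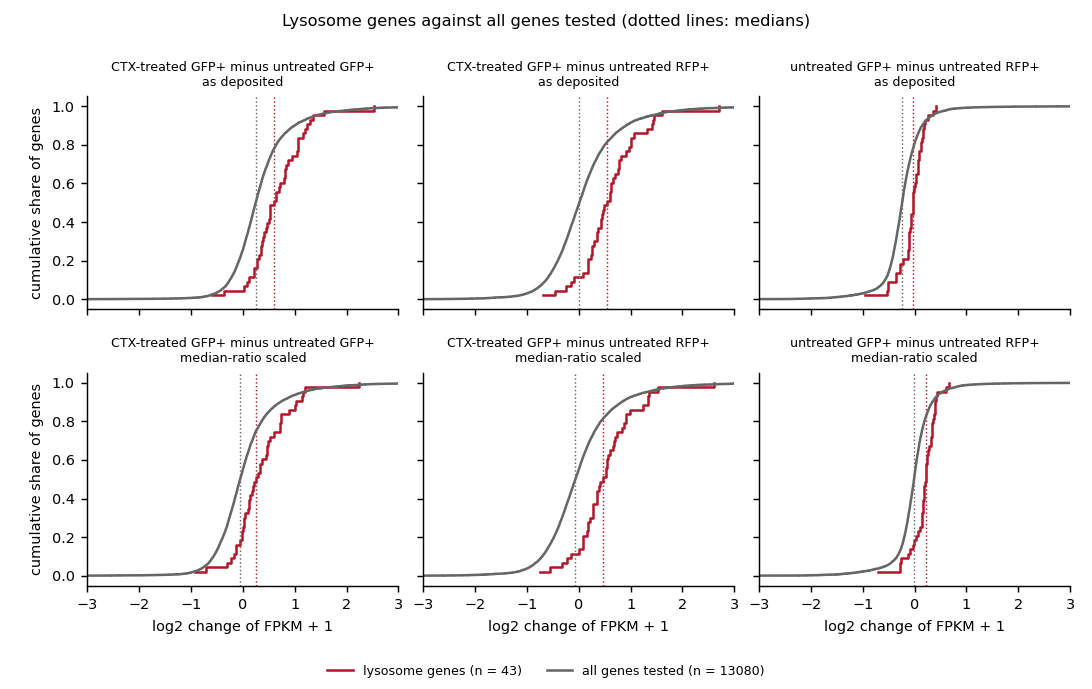
Cumulative share of genes by log2 change of FPKM + 1 for the 43 tested lysosome genes (red) and all 13080 tested genes (grey) in the 3 comparisons, as deposited (top) and median-ratio scaled (bottom), with medians as dotted lines. With CTX the red curves lie to the right of the grey ones, with medians of 0.60 against 0.25 in the top left panel.

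Other genes of the pathway were read in lists beside the members. In CTX-treated minus untreated GFP+ cells 6 of 18 other V-ATPase subunits rose (33.3%, beside 12.3% of all tested genes), and 2 after scaling (11.1%, beside 11.0% of all), with a median of 0.67 (0.32 scaled), among them Atp6v1e1 at 104 and 106 FPKM in CTX-treated and 51.3 and 60.8 in untreated GFP+ cells (0.90, adjusted p = 0.0193). Of 37 autophagy genes 10 rose (27.0%), and 8 after scaling (21.6%), with a median of 0.47 (0.15 scaled). They included the initiating kinase Ulk1 (0.98, adjusted p = 0.028), Atg14, a subunit of the autophagy lipid kinase (1.14, adjusted p = 0.0166), and Calcoco1 (1.12, adjusted p = 0.0145).

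The shares of the remaining lists that rose lay near or below the 12.3% of all tested genes. After scaling 11.0% of all tested genes rose and 8.04% fell. Of 29 other lysosomal hydrolases 2 rose (6.90%; 2 rose and 2 fell scaled), with a median of 0.36 (0.03 scaled). Smpdl3a, a relative of the acid sphingomyelinase, had 4.91 and 5.27 FPKM in CTX-treated and 1.89 and 2.11 in untreated GFP+ cells (1.02, adjusted p = 0.0159; scaled 0.76, adjusted p = 0.0285). Of 23 other lysosomal membrane proteins 3 rose (13.0%; 2 scaled), Laptm4b, Gpr137b and Lmbrd1 as deposited. The median of these 23 was 0.55 (0.22 scaled), above the 0.25 (-0.05 scaled) of all tested genes. Of 25 genes for sorting to lysosomes 0 passed as deposited (6 at an unadjusted p under 0.05) and 1 fell scaled, with a median of 0.23, close to the 0.25 of all genes.

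Among 21 genes of lysosomal signalling and the TFEB family 2 rose (9.52%), Mitf and Gpnmb, and after scaling 2 rose and 1 fell. Mitf had 4.67 and 4.35 FPKM in CTX-treated GFP+, 1.91 and 2.53 in untreated GFP+ and 0.913 and 1.26 in RFP+ cells, and the 3 groups did not overlap. It rose with CTX against untreated GFP+ cells by 0.78 (SE 0.18, adjusted p = 0.0387; scaled 0.52, adjusted p = 0.0404). Gpnmb, a glycoprotein of melanosomes and lysosomes known as a target of MITF, had 9.36 and 9.33 FPKM in CTX-treated GFP+, 2.44 and 4.05 in untreated GFP+ and 1.66 and 1.96 in RFP+ cells. Its rise was 1.31 (SE 0.22, adjusted p = 0.0148; scaled 1.02, adjusted p = 0.0101). In untreated GFP+ minus RFP+ cells both passed after scaling and not as deposited (Mitf 0.80, adjusted p = 0.0418, and Gpnmb 0.76, adjusted p = 0.0469). The relative Tfe3, named after its values were seen, had 20.8 and 19.1 FPKM in CTX-treated GFP+, 15.0 and 14.9 in untreated GFP+ and 19.2 and 18.5 in RFP+ cells (0.40, adjusted p = 0.155), and Tfec was listed at 0 in all samples.

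In CTX-treated GFP+ minus RFP+ cells 5 of the 29 other hydrolases rose (17.2%, beside 11.0% of all tested genes). Among them were Smpdl3a (1.15, adjusted p = 0.00902) and the carboxypeptidase Scpep1 (0.92, adjusted p = 0.032). Scaled, 8 hydrolases rose (27.6%, beside 15.0% of all) and 1 fell (3.45%, beside 16.2% of all). Of the 37 autophagy genes 4 rose, a share of 10.8% that did not stand above that of all genes (8 scaled, 21.6% beside 15.0%), among them the autophagosome protein Map1lc3b (1.04, adjusted p = 0.0227). Of the 21 signalling genes 3 rose (14.3%) as deposited, Gpnmb (1.88, adjusted p = 0.00333), Mitf (1.41, adjusted p = 0.00473) and Fnip1 (0.87, adjusted p = 0.0303). After scaling 6 rose (28.6%, beside 15.0% of all). Without 1 gene that reached 1 FPKM only in the CTX samples, 5 of 20 rose after scaling, beside 12.5% of genes chosen the same way. The V-ATPase subunits Atp6v1c2 and Atp6v0a4 fell (11.1%, beside 5.99% of all) while 0 of 18 rose as deposited. Scaled, 3 rose (16.7%, beside 15.0% of all) and 2 fell (11.1%, beside 16.2% of all). Of the 23 membrane proteins 0 passed as deposited (7 at an unadjusted p under 0.05 in limma), and 3 rose (13%) and 1 fell (4.35%) scaled. Of the 25 sorting genes 1 fell (4%), Sort1, and 1 rose (4%) and 2 fell (8%) scaled.

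Between the untreated populations 2 genes of these lists passed as deposited, beside 0.115% of all tested genes higher and 1.78% lower. They were 1 of the 18 V-ATPase subunits and 1 of the 25 sorting genes. Of the 29 hydrolases, 23 membrane proteins, 21 signalling genes and 37 autophagy genes 0 passed. After scaling 1 of the 29 hydrolases (3.45%) and 2 of the 21 signalling genes (9.52%) were higher, beside 1.02% of all. The V-ATPase subunit Atp6v1c2 had 2.04 and 3.77 FPKM in untreated GFP+ and 14.2 and 22.9 in RFP+ cells, and fell by 2.32 on the log2 scale (SE 0.30, adjusted p = 0.0185). The sorting receptor Sort1 had 0.762 and 1.12 FPKM in untreated GFP+ and 4.15 and 4.39 in RFP+ cells, and fell by 1.45 (SE 0.17, adjusted p = 0.0161). Both passed after scaling too (adjusted p = 0.0251 and 0.0121). In CTX-treated GFP+ cells they stayed low, Atp6v1c2 at 2.0 and 2.18 FPKM and Sort1 at 1.13 and 1.05 FPKM.

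**Figure D4:**
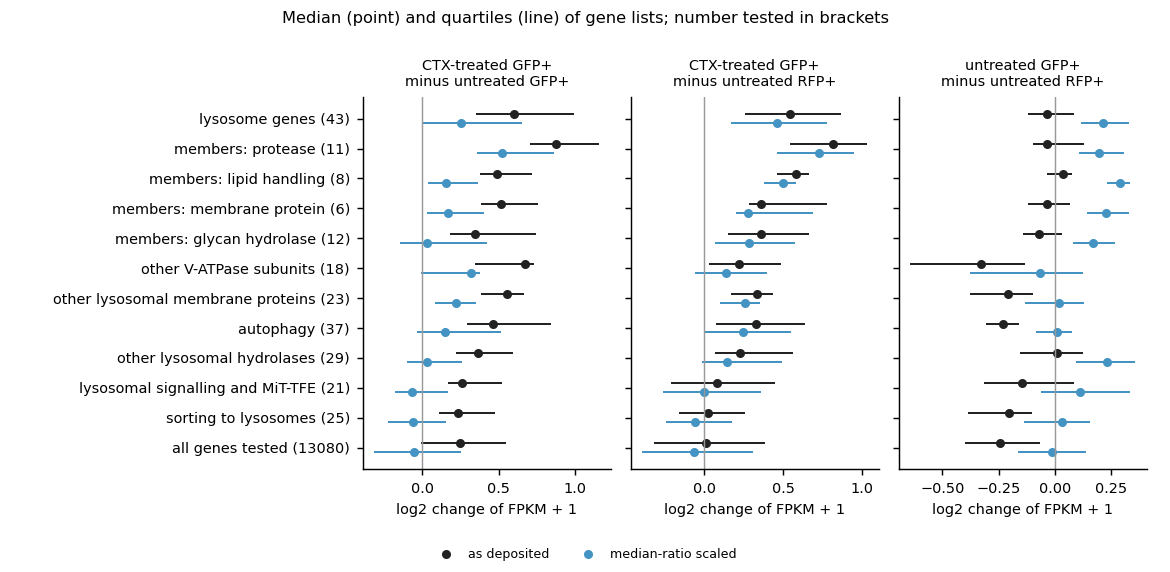
Median (point) and quartiles (line) of the log2 change of FPKM + 1 for the lysosome genes, their larger role groups, other pathway lists and all tested genes, as deposited (black) and median-ratio scaled (blue). In CTX-treated minus untreated GFP+ cells the 11 tested protease members have a median of 0.87 (0.82 without Ctsf and Ctss) and genes for sorting to lysosomes lie with all genes (0.23 and 0.25).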

How the data were processed

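RNA of 6 sorted Tri-PyMT samples was sequenced from TruSeq libraries, per the labels' protocols. The authors deposited 1 table of FPKM per gene and sample, and per the submitters' processing notes CASAVA 1.8.2, FastQC, TopHat, Cufflinks and HTSeq were used with mm9, in an order not given in the sources used here. Without read totals, the depth of each sample is unknown and values carry no counting interval. The relative number of fragments was read from the commonest ratio between samples of values under 0.1 FPKM.

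Changes on log2(FPKM + 1) were fitted in R 4.3.3 with limma 3.58.1, all 6 samples in 1 model with 3 residual degrees of freedom, an intensity trend, two-sided tests and Benjamini-Hochberg adjustment in each comparison. Genes needed 1 FPKM in at least 2 samples. The fit was tested on simulated data. The members, lists, alternatives and tests were chosen with earlier results of these data known. Members past the threshold as deposited or scaled, the 5 of highest level, those near 0 that mark macrophages, and up to 3 risen or fallen genes of each other list are named, apart from 1 gene that is not reported here. RefSeq promoters were matched by symbol. Figures used matplotlib 3.10.9 in Python 3.11.15. Averaging the CTX pair and crossing its replicate numbers were added after the data were seen.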

Additional observations from a re-analysis of the deposited data

How the results depend on the processing

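No lysosome gene called as deposited changed sign under any alternative run, while the number called moved. In CTX-treated minus untreated GFP+ cells 18 rose as deposited, against 8 with no filter on low values, 11 with a minimum of 5 FPKM, 8 with only the 4 samples compared, 4 with the CTX pair averaged, 0 with averaging and scaling (13 at an unadjusted p under 0.05 in limma), 10 with scaling without untreated GFP+ replicate 1, and 3 to 29 when 1 sample was left out. None fell as deposited, 2 fell after median-ratio scaling, after quantile normalization and after scaling without untreated GFP+ replicate 1, and 0 to 1 with 1 sample left out. The median of 0.60 became 0.25 scaled, 0.35 after quantile normalization, 0.25 with averaging and scaling, 0.39 with scaling without that replicate, and 0.51 to 0.73 with 1 sample left out. In CTX-treated GFP+ minus RFP+ cells the 16 risen became 9 with no filter, 10 with 5 FPKM, 25 after quantile normalization, 26 with the 4 samples compared, 5 with averaging, 2 with averaging and scaling, 25 with scaling without untreated GFP+ replicate 1, and 2 to 26 with 1 sample left out. The 1 fallen became 2 after either normalization, with the 4 samples compared and with scaling without untreated GFP+ replicate 1, 0 with averaging, alone or scaled, and 0 to 2 with 1 sample left out, and the median was 0.49 to 0.55 with 1 sample left out. In untreated GFP+ minus RFP+ cells 0 fell, against 1 scaled, 1 in the replicate block and 0 to 6 with 1 sample left out, and the median of -0.03 became 0.21 scaled, 0.22 after quantile normalization, 0.21 with averaging and scaling, 0.14 with scaling without untreated GFP+ replicate 1, and -0.16 to 0.12 with 1 sample left out. With 1 sample left out the median of all tested genes moved too. In CTX-treated minus untreated GFP+ cells it ran from 0.08 without untreated GFP+ replicate 1 to 0.43 without replicate 2. In untreated GFP+ minus RFP+ cells it ran from -0.42 without untreated GFP+ replicate 2 to -0.06 without replicate 1. The shares of all genes called in those fits are not given here. The cause of these moves was not tested.

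Deviations of same-numbered samples correlated at 0.298 between untreated GFP+ and RFP+ cells, -0.107 between CTX-treated and untreated GFP+ and -0.0364 between CTX-treated GFP+ and RFP+ cells, so same-numbered samples deviated together in 1 of 3 pairs of groups, and the numbers, which the labels tie to no shared culture or day, were not taken as a pairing. With the replicate number as a block the risen members were 18 and 16 in the CTX comparisons, with 0 and 1 fallen, and 1 fell between the untreated populations, Ctsh. With the CTX numbers crossed that last count was also 1. Low members such as Lyz2, Ctss, Ctsf and Ctsk rest on few fragments whose number is not known here. Lyz2, Ctsf and Ctss passed the filter only through the CTX samples, which fixed their direction beforehand. Some of them are among the members still risen with the CTX pair averaged.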
